A study of Mus musculus with 12 samples.

Results

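Genes of antigen presentation and of the interferon response were followed by RNA sequencing in thyroids of mice with and without thyroid dysplasia, with 1 library per mouse. The genes were 31 rows of a deposited table of 55536 genes. They were taken from the table by gene symbol, and each symbol matched 1 row. By role they comprised 7 genes of the class I pathway (*B2m*, *H2-K1*, *H2-D1*, *Tap1*, *Tap2*, *Tapbp*, *Nlrc5*), 7 of the class II pathway (*H2-Aa*, *H2-Ab1*, *H2-Eb1*, *H2-DMa*, *H2-DMb1*, *Cd74*, *Ciita*), 6 regulators of interferon signaling (*Irf1*, *Irf7*, *Irf8*, *Irf9*, *Stat2*, *Usp18*), 2 cytosolic RNA sensors (*Ifih1*, *Ddx58*) and 9 effectors (*Isg15*, *Ifit1*, *Ifit2*, *Ifit3*, *Oasl2*, *Rsad2*, *Bst2*, *Gbp2*, *Gbp3*). All 31 passed the filter on low counts that left 19661 genes for testing. Of the 31 genes, 10 lie on chromosome 17 between positions 33915899 and 35267499 of GRCm38, the mouse MHC region, and the whole set spans 15 chromosomes.

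The 5 affected mice (mice 1, 3, 4, 5 and 6) were on the C57BL/6NTac (B6NTac) background and carry the thyroid dysplasia label. The series title ascribes that phenotype to a LINE-1 retrotransposon in thyroglobulin (*Tg*). The 7 unaffected mice were 6 animals on the C57BL/6NCrl (B6NCrl) background from another vendor (mice 21 to 26) and 1 animal (mouse 14) of a knockout strain on the B6NTac background. The labels name neither the knocked-out gene nor the *Tg* genotype, age, sex or extraction batch of a mouse, and they list no treatment. Because all affected mice were B6NTac and 6 of the 7 unaffected mice were B6NCrl, phenotype and substrain cannot be told apart, except through mouse 14.

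MHC class I molecules display peptides from the cytosol on nearly all nucleated cells, whereas class II molecules display peptides from endosomes, mostly on dendritic cells, B cells and macrophages. Interferons raise both. Type I interferons act through a complex with STAT2 and IRF9 that binds the interferon-stimulated response element (ISRE), and interferon gamma acts at the GAS element. In the thyroid, class II molecules on follicular cells are known from autoimmune thyroiditis.

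Promoter windows from RefSeq (GRCm38.p6), from 250 bases before to 50 bases after the annotated start, were at hand for 25 of the 31 genes. The set of windows used here held none for *Tap2*, *Nlrc5*, *H2-Ab1*, *Cd74*, *Ciita* and *Usp18*. Motifs were searched on both strands. The ISRE core, GAAA followed by any 2 bases and GAAA, was present in 11 of the 25 genes (44%), against 3.99% of the 27025 genes with such a window. Those 11 were 7 of the 9 effectors, both RNA sensors, *Stat2* and *B2m*. It was found in none of the 4 class II genes with a window. Stretches around the first match in each gene compare the element across members, 5′ to 3′ along the gene's strand, with the match in capitals. A match on the opposite strand reads TTTC, any 2 bases, TTTC.

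B2m: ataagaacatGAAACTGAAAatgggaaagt
Stat2: cgcaccctggTTTCAGTTTCctttccctag
Ifih1: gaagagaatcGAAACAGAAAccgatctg
Ddx58: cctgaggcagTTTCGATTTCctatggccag
Isg15: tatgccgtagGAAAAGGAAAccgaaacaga
Ifit1: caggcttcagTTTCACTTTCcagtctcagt
Ifit3: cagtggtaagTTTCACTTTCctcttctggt
Rsad2: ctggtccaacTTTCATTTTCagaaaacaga
Bst2: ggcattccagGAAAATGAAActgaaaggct
Gbp2: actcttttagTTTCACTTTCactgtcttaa
Gbp3: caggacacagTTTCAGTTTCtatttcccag

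In *B2m* (chr2:122147538-122147567, plus strand) and *Stat2* (chr10:128270266-128270295, plus strand) the match began 139 and 222 bases before the start, and in *Ifih1* (chr2:62646206-62646233, minus strand) at base 33 after it. *Ifit1* (chr19:34640775-34640804), *Ifit3* (chr19:34583363-34583392), *Gbp2* (chr3:142620594-142620623) and *Gbp3* (chr3:142559989-142560018) lie on the plus strand and *Bst2* (chr8:71537583-71537612) on the minus strand, with the match 45 to 156 bases before the start. The match began 120 bases before the start in *Rsad2* (chr12:26456553-26456582, minus strand), at base 3 after it in *Ddx58* (chr4:40239804-40239833, minus strand) and 78 bases before it in *Isg15* (chr4:156200877-156200906, minus strand). *Isg15*, a ubiquitin-like modifier and a classic interferon target, held 3 overlapping matches, which the 250 bases upstream of its start (chr4:156200819-156201068, minus strand) show in capitals beside those of *Rsad2* (chr12:26456453-26456702, minus strand). The upstream stretch of *Ifit2* (chr19:34550444-34550693, plus strand) is given because that gene was among those lower in affected mice and held no ISRE core in either of its 2 windows; its capitals mark a match to the GAS letters TTCNNNGAA.

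Isg15: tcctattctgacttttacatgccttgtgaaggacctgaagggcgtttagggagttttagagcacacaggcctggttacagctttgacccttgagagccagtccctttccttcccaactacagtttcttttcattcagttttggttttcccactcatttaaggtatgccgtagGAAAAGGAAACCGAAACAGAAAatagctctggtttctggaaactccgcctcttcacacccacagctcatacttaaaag
Rsad2: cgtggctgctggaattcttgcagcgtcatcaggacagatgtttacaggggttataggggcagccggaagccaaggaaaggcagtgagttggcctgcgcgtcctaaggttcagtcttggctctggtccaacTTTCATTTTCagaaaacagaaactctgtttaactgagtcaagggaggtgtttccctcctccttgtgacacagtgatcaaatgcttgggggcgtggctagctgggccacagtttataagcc
Ifit2: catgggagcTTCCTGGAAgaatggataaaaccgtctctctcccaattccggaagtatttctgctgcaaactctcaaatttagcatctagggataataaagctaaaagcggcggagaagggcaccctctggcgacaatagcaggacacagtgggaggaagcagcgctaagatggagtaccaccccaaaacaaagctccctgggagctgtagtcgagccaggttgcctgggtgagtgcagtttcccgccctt

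GAS letters were in 4 of the 25 genes (16%; *Irf1*, *Irf8*, *Ifit2*, *Bst2*), against 9.55% of all genes. CCAAT, part of the conserved promoter module of MHC genes, was in all 5 class I and all 4 class II genes with a window and in 56% of the 25, against 41.1% of all genes. An NF-kB motif (GGGA, any base, TTTCC) was in *B2m* alone, which is 4% of the 25 genes against 0.466% of all genes. In *Bst2*, *Gbp3* and *Isg15* ISRE matches overlap each other, and in *Bst2* the GAS match overlaps one of them. A match describes letters in the window and was not tested as a binding site.

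**Figure D1:**
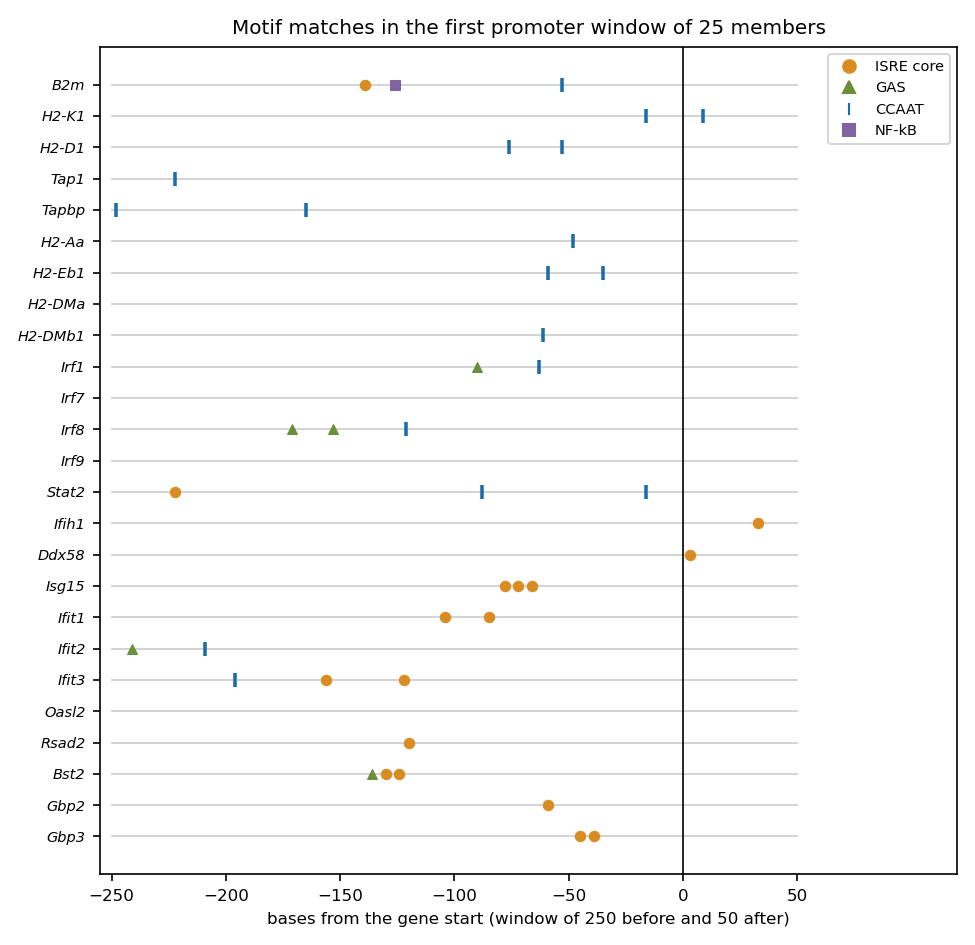
Matches to 4 motifs in the first promoter window of 25 genes, by distance in bases from the annotated start (x axis), with 1 line per gene. ISRE core matches (circles) lie on lines of effectors, RNA sensors, Stat2 and B2m, and CCAAT matches (bars) on those of all 5 class I genes, 3 of 4 class II genes, Irf1, Irf8, Stat2, Ifit2 and Ifit3.

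Total counts ranged from 11434901 to 23319948 per mouse, and *Tg* took 10.7% to 24.3% of them in affected and 21.6% to 29.6% in unaffected mice. Affected mice 1 and 6 had the lowest *Tg* shares, 11.0% and 10.7%, with 7.16% and 6.86% mitochondrial counts. All 11 markers of thyroid follicular cells passed the filter, with *Slc26a4* called higher and *Pax8* called lower in affected mice. Libraries also differed in tissues other than follicles. Summed over 10 T cell genes, the level in CPM (counts scaled to library size with TMM factors) was 349 in each of unaffected mice 14 and 21, 57.1 in affected mouse 1 and 63.7 in affected mouse 3, against 3.70 to 6.51 in the other 8 mice. Mice 14 and 21 also held the thymocyte gene *Rag1*, up to 439 CPM, and affected mouse 1 had the highest sum of 6 B cell genes, 187 CPM against 6.34 to 35.2 CPM in the other mice. Affected mouse 6 had the highest sum of 6 skeletal muscle genes, 20342 CPM against 1.34 to 9950 CPM in the other mice. Some results are therefore also given without mice 1, 3, 14 and 21 (3 affected against 5 unaffected mice), or without mice 14 and 21. Both choices were made after the values were seen. Of single genes outside the set listed at the start, only *Cmpk2* is given in this way, without mice 1, 3, 14 and 21. How far the other genes called outside that set depend on these mice is not shown. In bulk tissue, fewer cells of a type and less RNA per cell cannot be told apart.

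Per transcript length, in deposited FPKM (fragments scaled to transcript length and sequencing depth), the class I genes *B2m* and *H2-K1* had the highest means of the set. *B2m*, the light chain shared by class I molecules, was at 221 ± 55.0 FPKM (SD, n = 12) and above the heavy chain gene *H2-K1* (126 ± 29.5) in all 12 mice. *Cd74*, the class II invariant chain, followed at 116 ± 50.4 and *H2-D1* at 93.9 FPKM (66.6 to 132 over mice). Between *H2-D1* and the next gene, the peptide-loading factor *Tapbp* (47.7 ± 6.20), the ranges over mice did not overlap, and every other pair of neighbours in the order did. The class II chain genes *H2-Aa*, *H2-Ab1* and *H2-Eb1* lay at 47.3 ± 23.9, 37.3 ± 18.4 and 35.6 ± 15.6 FPKM. Sensors, regulators and effectors ran from *Ddx58* (14.3 ± 3.52) down to *Isg15*, lowest of the 31 at 0.958 ± 0.462 FPKM, with as few as 4 counts in a mouse. *Irf1*, *Stat2* and *Irf9* were at 13.0, 12.1 and 10.6 FPKM. The transcript length implied by each gene's count and FPKM overlapped between the groups for all 31 genes.

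With edgeR's quasi-likelihood test over all 19661 genes and Benjamini-Hochberg adjustment (threshold 0.05), none of the 31 genes was called higher in affected mice and 3 were called lower, *Rsad2*, *Ddx58* and *Ifit2*. None was higher at an unadjusted p under 0.05 either, and DESeq2 called none higher. Over all genes, 7.63% were called higher and 6.1% lower, 13.7% in all, or 1500 and 1199 genes, and the members' share called was 9.68%. That split turned to 1149 and 1510 with upper-quartile factors and to 608 and 1711 with library totals without *Tg*. The median log2 fold change was -0.09 over the 31 genes and 0.01 over all genes tested. Over the 31 genes it was 0.03 without affected mouse 6, 0.04 without unaffected mouse 21 and -0.24 without affected mouse 1. Without mice 14 and 21 it was 0.08, and without mice 1, 3, 14 and 21 it was -0.15. None of the 31 genes had groups without overlap in CPM, against 7.14% of all genes.

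**Figure D2:**
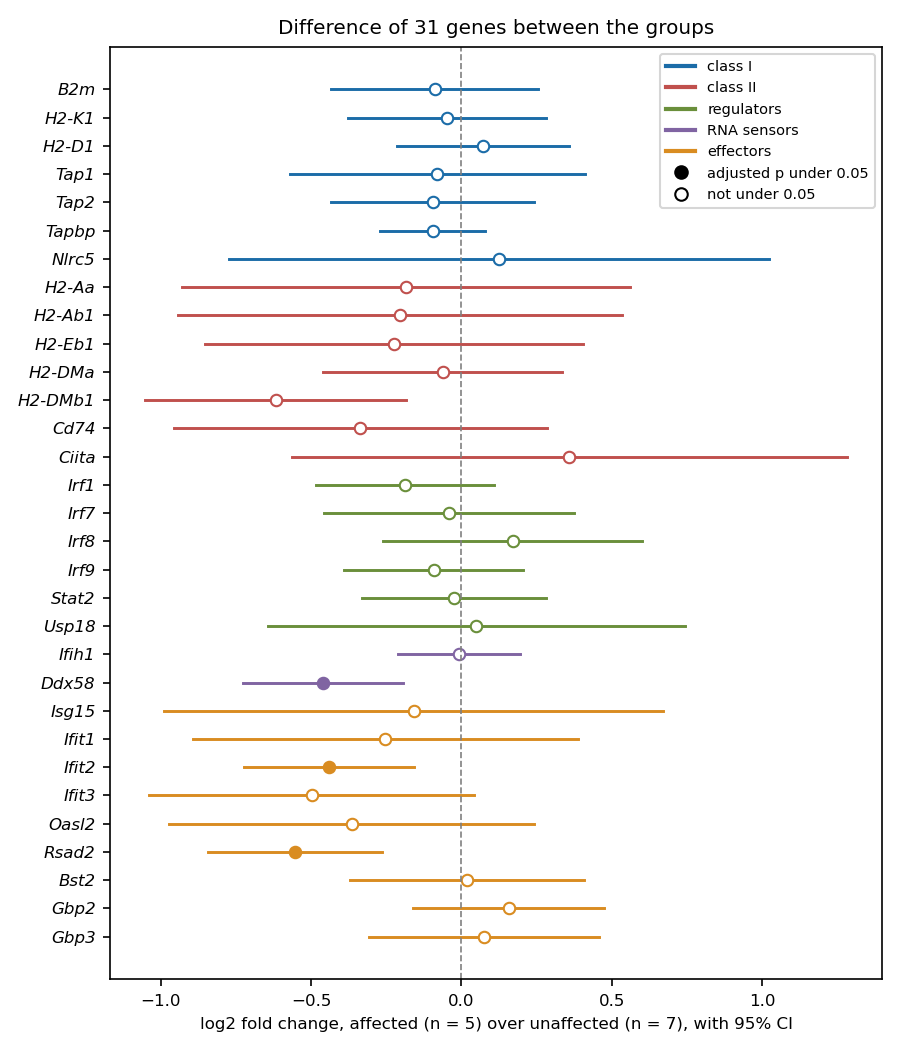
Log2 fold change of each of the 31 genes, affected (n = 5) over unaffected (n = 7) mice, with 95% confidence intervals from the edgeR fit, by role; filled points have an adjusted p under 0.05. The filled points are Rsad2, Ddx58 and Ifit2, all below 0. The points of the class I genes lie near 0, with the widest interval for Nlrc5.

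*Rsad2* encodes viperin, an antiviral enzyme of the endoplasmic reticulum and lipid droplets (chr12:26442746-26456452, minus strand). It was at 20.4, 19.3, 26.1, 27.8 and 20.4 CPM in affected mice 1, 3, 4, 5 and 6, and at 26.9 (lowest), 33.3 (median) and 44.4 CPM (highest) in the 7 unaffected mice. The groups met only between affected mouse 5 and unaffected mouse 25. The log2 fold change was -0.55 ± 0.13 (SE), with an adjusted p of 0.0168 by edgeR, and lay between -0.69 and -0.46 with the call kept with each other scaling, filter, test or covariate tried and with any single mouse left out. Against the 6 B6NCrl mice alone the edgeR adjusted p was 0.0302. Without mice 14 and 21 the log2 fold change was -0.54 (edgeR adjusted p = 0.0525), and without mice 1, 3, 14 and 21 it was -0.41 (edgeR adjusted p = 0.221).

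*Cmpk2*, a mitochondrial nucleotide kinase also induced by interferon, is divergently placed 12751 bases from *Rsad2* on chromosome 12 and belongs to the list of other interferon-stimulated genes. It was at 5.37 to 6.29 CPM in affected mice, and at 6.69 (lowest), 11.4 (median) and 16.9 CPM (highest) in unaffected mice, without overlap. Of the 45 genes of that list, 2 had all affected mice above and 1 had all affected mice below the unaffected mice. Over all genes, 7.14% had no overlap on either side. Its log2 fold change was -0.91 ± 0.21 (edgeR adjusted p = 0.0144), and -0.78 without mice 1, 3, 14 and 21 (edgeR adjusted p = 0.0881).

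*Ddx58* encodes RIG-I, a sensor of viral RNA in the cytosol (chr4:40203773-40239828, minus strand). Affected mice 1, 3, 4, 5 and 6 had 36.6, 37.9, 36.2, 32.6 and 24.3 CPM, whereas the unaffected mice had 37.3 (lowest), 48.7 (median) and 52.6 CPM (highest). Affected mouse 3 alone reached above the lowest unaffected mouse. The log2 fold change was -0.46 ± 0.12 (edgeR adjusted p = 0.0269), but the call was lost when affected mouse 5 (edgeR adjusted p = 0.0649) or unaffected mouse 26 (0.0546) was left out. Against B6NCrl mice alone it was -0.44 (edgeR adjusted p = 0.0499). Without mice 14 and 21 it was -0.41 (edgeR adjusted p = 0.0873), and without mice 1, 3, 14 and 21 it was -0.51 (0.0989). The other sensor, *Ifih1* (MDA5), was at 35.5 ± 4.10 CPM in affected (n = 5) and 35.7 ± 3.99 in unaffected mice (n = 7), a log2 fold change of -0.01 with a 95% interval of -0.21 to 0.19.

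*Ifit2* encodes a tetratricopeptide protein that restricts translation of viral RNA (chr19:34550694-34576419, plus strand). Its levels were 14.7, 9.59, 11.6, 9.12 and 11.0 CPM in affected mice 1, 3, 4, 5 and 6, and 13.2 (lowest), 14.1 (median) and 18.4 CPM (highest) in unaffected mice. Affected mouse 1 lay within the unaffected range and the other affected mice below it. The log2 fold change was -0.44 ± 0.13 (edgeR adjusted p = 0.0426); with single mice left out the adjusted p ran from 0.0104 to 0.108 and passed only without affected mouse 1 or unaffected mouse 23. Without mice 14 and 21 it was -0.34 (edgeR adjusted p = 0.131), and against B6NCrl mice alone -0.41 (0.0774).

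The 3 calls depended on which mice were kept and on the model. No member was called without mice 14 and 21 (4% of all genes called lower) or without mice 1, 3, 14 and 21 (1.74% of all genes called lower). At an unadjusted p under 0.05, edgeR gave 4 members lower and 1 higher (*Gbp2*, 0.31 on the log2 scale) without mice 14 and 21, beside 11.7% and 14.4% of all genes. It gave 5 lower and 0 higher without mice 1, 3, 14 and 21, beside 9.19% and 11.6% of all genes. In that set of 8 mice, *Ddx58*, *Ifit2* and *H2-DMb1* lay wholly below the unaffected mice, as 7.25% of all genes did. With a leukocyte score as covariate, 6 members were called lower, the 3 above with *H2-DMb1*, *Cd74* and *Ifit3*, beside 7.09% of all genes. DESeq2 called 4 (*H2-DMb1* added), beside 7.92% of all genes. *Rsad2* alone was called with library totals in place of TMM factors (4.95% of all genes called lower) and with limma on log2(FPKM + 1), log2(FPKM + 0.1) or log2(FPKM + 1) without a filter (4.79%, 4.87% and 1.68% of all genes). With upper-quartile factors *Rsad2* lay wholly below the unaffected mice, as did 4.2% of all genes.

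**Figure D3:**
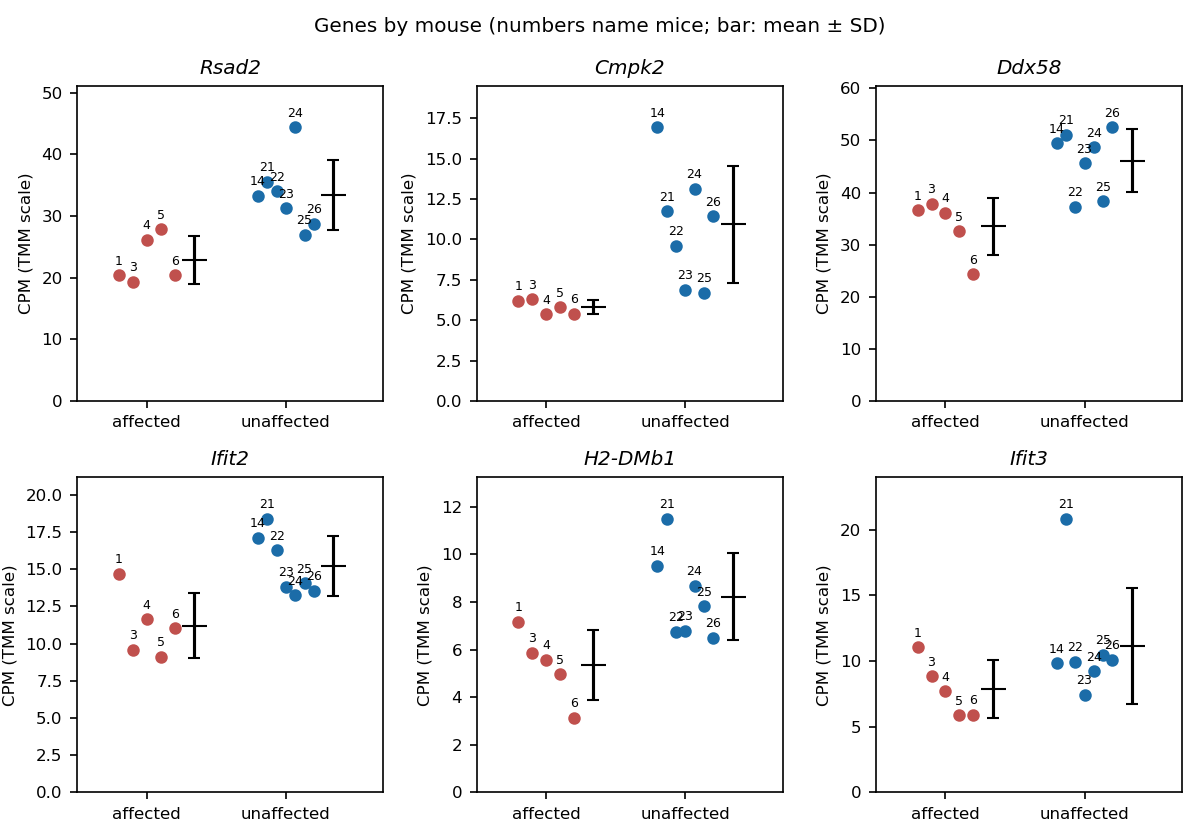
Level in CPM (y axis, from 0) of 6 genes in each affected and unaffected mouse, with mouse numbers at the points and bars for mean ± SD. Cmpk2 separates the groups (highest affected mouse 6.29, lowest unaffected mouse 6.69), whereas the other genes overlap, Ifit2 through affected mouse 1 and Ifit3 with unaffected mouse 21 far above the rest.

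Of the other effectors, none passed the test. *Ifit3*, a partner of *Ifit2*, was at 7.88 ± 2.18 CPM in affected (n = 5) and 11.1 ± 4.40 in unaffected mice (n = 7), with unaffected mouse 21 at 20.8 CPM (log2 fold change -0.50, 95% interval -1.04 to 0.04). It shares 41.1% of its 75-base stretches with *Ifit3b*, so its counts are uncertain. *Oasl2*, an oligoadenylate synthetase-like protein, differed by -0.37 and *Ifit1* by -0.25 on the log2 scale. *Gbp2* and *Gbp3*, guanylate-binding proteins that coat intracellular pathogens, differed by 0.16 and 0.08, and *Bst2* (tetherin), which holds budding virions at the cell surface, by 0.02. *Isg15* differed by -0.16, but its 95% interval ran from -0.99 to 0.67.

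The fold changes estimated for the regulators were small, but their intervals also take in larger differences. *Irf1*, *Irf9*, *Irf7* and *Stat2*, transcription factors of the interferon response, differed by -0.19, -0.09, -0.04 and -0.02 on the log2 scale. The 95% intervals of these 4 genes reached from -0.48 (*Irf1*) to 0.38 (*Irf7*) at most. *Irf8*, a factor of myeloid and B cells, differed by 0.17 (95% interval -0.26 to 0.60) and was highest in affected mouse 1, at 31.9 CPM. *Usp18*, which removes ISG15 from proteins and dampens the receptor, differed by 0.05 with an interval of -0.64 to 0.74. None of the 6 passed the test.

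Fold changes estimated for the class I genes were small as well, with intervals of differing width. *B2m* was at 182 ± 43.0 CPM in affected (n = 5) and 194 ± 37.2 in unaffected mice (n = 7), *H2-K1* at 174 ± 34.4 and 180 ± 36.0, and *H2-D1* at 191 ± 35.9 and 182 ± 28.7. The log2 fold changes were -0.09, -0.05 and 0.07, and the 95% intervals reached from -0.43 to 0.36 at most. The peptide transporter subunits *Tap1* and *Tap2* differed by -0.08 (95% interval -0.57 to 0.41) and -0.10 (-0.43 to 0.24). *Tapbp* (tapasin) differed by -0.10 with an interval of -0.27 to 0.08. *Nlrc5*, the transactivator of class I genes, ranged from 5.35 to 22.1 CPM in affected and 6.24 to 22.5 CPM in unaffected mice, so that its difference of 0.12 had an interval of -0.77 to 1.02. Up to 5.56% of the 75-base stretches of *H2-D1* and 3.10% of those of *H2-K1* occur in other genes. For *Tapbp* the share was 18.6%, almost all antisense, and whether counting used strand is not stated.

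Among 18 other genes of the class I pathway, 3 were called higher and 1 lower (22.2%, against 13.7% of all genes called). The 3 were the peptide-loading chaperones *Calr* (log2 fold change 2.25), *Pdia3* (1.85) and *Canx* (0.64), which also fold glycoproteins in the endoplasmic reticulum. The gene called lower was the immunoproteasome subunit *Psmb10*, at 5.07 ± 0.850 CPM in affected (n = 5) and 7.75 ± 1.60 in unaffected mice (n = 7), a log2 fold change of -0.61 ± 0.16 (edgeR adjusted p = 0.0221). The median log2 fold change over the 18 genes was 0.03. Over the 15 genes without *Calr*, *Pdia3* and *Canx* it was -0.11, with 6.67% called, against 13.7% of all genes. The 3 genes left out were those called higher, so leaving them out by itself lowers both values.

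Class II genes overlapped widely between groups. *H2-Aa*, the class II alpha chain, was at 88.4, 54.8, 45.3, 36.0 and 28.9 CPM in affected mice 1, 3, 4, 5 and 6, and at 33.1 (lowest), 50.4 (median) and 115 CPM (highest) in unaffected mice. Most of the affected range lay within the unaffected range. Its log2 fold change was -0.19 with a 95% interval of -0.93 to 0.56, and *H2-Ab1* and *H2-Eb1* differed by -0.20 and -0.22. Without mice 14 and 21 these became 0.21, 0.23 and 0.12, and without mice 1, 3, 14 and 21 they were -0.25, -0.14 and -0.22, none of them called. *Cd74* differed by -0.34 (95% interval -0.96 to 0.28), by -0.02 without mice 14 and 21 and by -0.37 without mice 1, 3, 14 and 21.

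*H2-DMb1* and *H2-DMa* encode the chains of the DM molecule, which exchanges peptides on class II. *H2-DMb1* was at 7.18, 5.86, 5.58, 4.97 and 3.14 CPM in affected mice 1, 3, 4, 5 and 6, and at 6.49 (lowest), 7.83 (median) and 11.5 CPM (highest) in unaffected mice. Affected mouse 1 was the only affected mouse within the unaffected range. The log2 fold change was -0.62 ± 0.20 and missed the threshold (edgeR adjusted p = 0.0592); it passed in 6 of 27 alternatives. *H2-DMa* differed by -0.06. *H2-DMb1* shares 15.8% of its stretches with *H2-DMb2*.

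*Ciita*, the master transactivator of class II genes, was at 25.9 CPM in affected mouse 1, which held B cell genes, and at 4.47 to 10.2 CPM in the other affected mice. Unaffected mice had 4.81 (lowest), 7.73 (median) and 14.9 CPM (highest). The log2 fold change was 0.36 with an interval of -0.56 to 1.28, and it turned to -0.27 without affected mouse 1.

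Of 14 other class II genes, 12 passed the filter and 2 were called higher (16.7% of those tested, against 13.7% of all genes called). These were the lysosomal proteases *Ctss* (log2 fold change 0.85, edgeR adjusted p = 0.0396), which trims the invariant chain, and *Lgmn* (0.56, edgeR adjusted p = 0.00181). Macrophage markers moved the same way. Of 10, 5 were called higher (50%, against 7.63% of all genes) and none lower (6.1% of all genes). Among the 5 were *Lyz2* (1.73), *Cd68* (0.98), *Cd163* (0.91) and *Mrc1* (0.74), and no marker was at 0. Their sum was 310 to 475 CPM in affected and 121 to 273 CPM in unaffected mice. The sum of the class II chain genes *H2-Aa*, *H2-Ab1* and *H2-Eb1* was 76.5 to 204 CPM and 81.8 to 287 CPM. Per macrophage marker CPM, class II chains were thus at 0.334 ± 0.0767 in affected (n = 5) and 0.791 ± 0.170 in unaffected mice (n = 7), ranging from 0.247 to 0.429 and from 0.529 to 1.05. This ratio was formed after the values were seen and was not tested. It carries the difference in macrophage sums, which alone separate the groups, whereas the class II sums overlap. Class II RNA of other cells was not separated, so the ratio is not a level per macrophage.

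Dendritic cell markers summed to 54.2 to 76.5 CPM in affected and 62.9 to 87.6 CPM in unaffected mice. Of 10, 8 passed the filter, none was called higher and 1 was called lower (12.5% of those tested, against 6.1% of all genes). It was *Zbtb46* (-0.44, edgeR adjusted p = 0.0172), a gene that endothelium also expresses. Of 10 T cell markers 6 passed the filter and none was called, and *Cd8b1* was listed at 0 in at least 1 mouse of each group. Of 6 B cell markers 2 passed and none was called. Of 6 plasma cell markers 5 passed and 1 was called higher (20% of those tested, against 7.63% of all genes). It was *Derl3* (4.36), which also acts in the degradation of misfolded proteins. All 5 had a log2 fold change over 0, with a median of 1.87. The sum of the 6 was 93.1 to 225 CPM in affected and 10.6 to 37.6 CPM in unaffected mice. That sum includes *Derl3*, and its part was not separated from that of the markers not called. The part of leukocyte content in the values of class II genes was not tested beyond the leukocyte covariate.

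**Figure D4:**
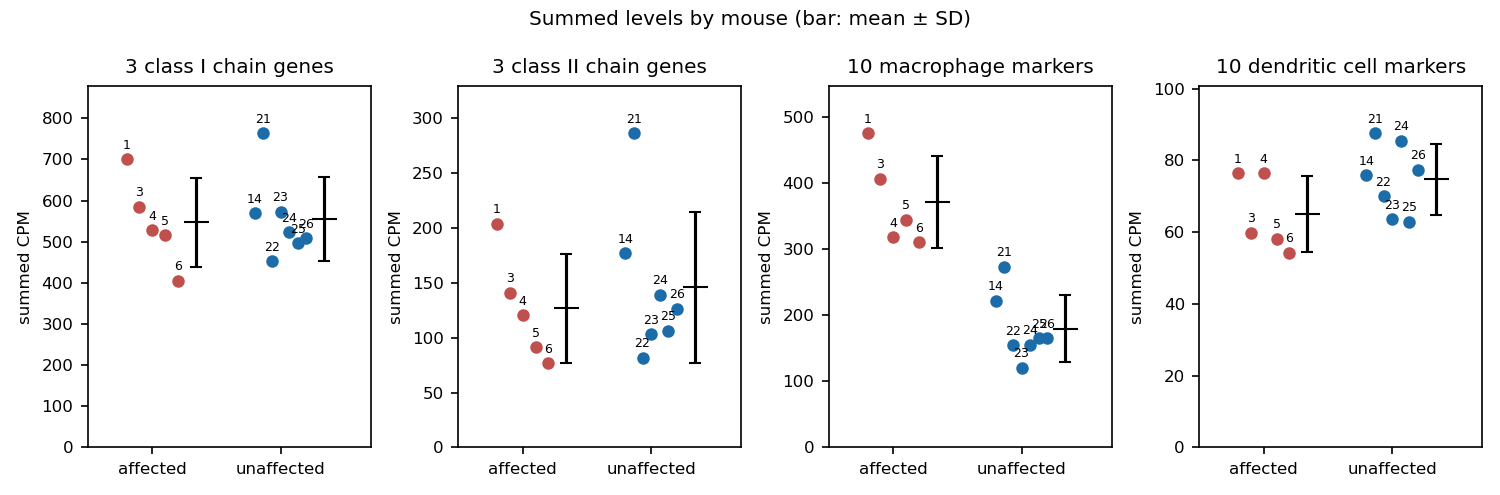
Summed CPM (y axes, from 0) of 3 class I chain genes, 3 class II chain genes, 10 macrophage markers and 10 dendritic cell markers in each mouse, with bars for mean ± SD. Macrophage sums separate the groups (310 to 475 against 121 to 273), whereas class I and class II sums overlap and are highest in unaffected mouse 21.

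Interferon ligands were nearly unread. Of 10 ligand genes, 7 had no count in any mouse and none passed the filter; a count of 0 allows up to 3 counts, or 0.130 to 0.250 CPM depending on the library (counting error only). *Ifnb1* and *Ifng* each had 1 count in 1 mouse, and *Ifnk* had 47 counts over 11 mice. Of 22 receptors and signaling genes, 21 matched the table. Among them 3 were called higher and none lower (14.3%, against 13.7% of all genes called), *Tlr7* (0.83), *Socs3* (0.76) and *Jak1* (0.28). The receptor chains did not pass the test.

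Of 45 other interferon-stimulated genes, all tested, 2 were called higher and 3 lower (11.1%, against 13.7% of all genes called). Their median log2 fold change was -0.05. Those higher were *Ifitm1* (1.47, edgeR adjusted p = 0.0204), which blocks viral entry and ran from 1.76 to 6.47 CPM in affected and 0.508 to 1.57 CPM in unaffected mice, and *Ifi204* (0.52, edgeR adjusted p = 0.00743), a DNA sensor. Beside *Cmpk2*, *Herc6*, the main ligase for ISG15 in mice, was lower (-0.41, edgeR adjusted p = 0.0466). The remaining gene called lower was the immunity-related GTPase *Irgm2*, at 21.2 ± 2.49 CPM in affected (n = 5) and 26.8 ± 2.85 CPM in unaffected mice (n = 7), named after its values were seen.

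Across mice, the extremes of the 31 genes fell mostly in the same animals. Unaffected mouse 21 was the highest of 12 for 26 genes and affected mouse 6 the lowest for 20. The same counts over all genes tested were not made, so this pattern may not be particular to the 31 genes. Mouse 21 held each class I maximum (7 of 7) and 6 of 7 class II maxima, and mouse 6 each class I minimum and 6 of 7 class II minima. Relative to the median of the 12 mice, the median log2 difference over the 31 genes was 0.60 in mouse 21 and -0.50 in mouse 6. Mouse 14, with as high a T cell sum as mouse 21, was at 0.19, and affected mice 1 and 3 were at 0.30 and 0.19. *Rsad2* departed from this pattern, being highest in unaffected mouse 24 and lowest in affected mouse 3. The parts of follicle content, thymus, lymphocytes and muscle in these levels were not tested.

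**Figure D5:**
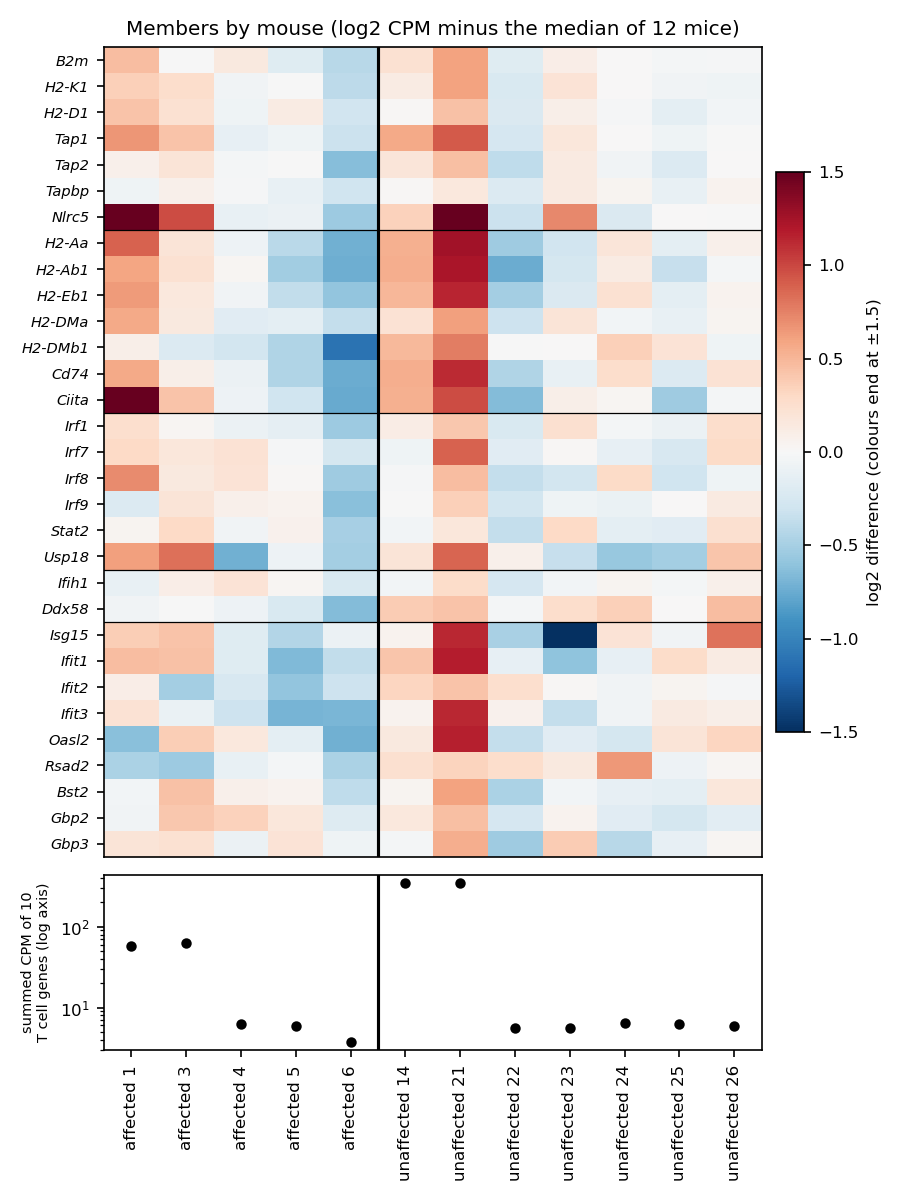
Log2 CPM of each of the 31 genes minus its median over 12 mice (colours, ending at ±1.5), with mice as columns and genes as rows in the order of roles, above the summed CPM of 10 T cell genes in the same mice (log axis). The column of unaffected mouse 21 is high and that of affected mouse 6 low for most genes, while mice 14 and 21 stand highest in T cell genes.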

How the data were processed

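Total RNA from thyroids of 12 mice was depleted of ribosomal RNA (KAPA RNA HyperPrep with RiboErase) and sequenced on an Illumina NextSeq. With OmicSoft Array Studio and Ensembl annotation, the authors aligned reads to a reference they name Mouse.B39 and deposited estimated counts per gene, not normalized, and FPKM values per gene and mouse. Gene coordinates in the deposited table were identical to those of GENCODE M21 (GRCm38) for 99.93% of 55450 genes, so GRCm38 is given as the build. Whether counting used strand is not given in the sources used here, and 15 of the 31 genes are marked as confounded in the deposited table.

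Estimated counts were rounded and filtered with edgeR's filterByExpr (minimum count 10). After TMM scaling, the 5 affected and 7 unaffected mice were compared by the robust quasi-likelihood F test of edgeR 4.0.16 (R 4.3.3), without covariates, and P-values were adjusted across the whole table (Benjamini-Hochberg); the scripts were tested on simulated data. Standard errors were derived from the F statistic. Errors of group values are SDs between mice. Alternatives used DESeq2 1.42.0, limma 3.58.1 on log2(FPKM + pseudocount) and sva 3.50.0. Each mouse is 1 library, so P-values cover the spread between mice.

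The 31 genes and all lists were chosen with earlier results of these data known. Named are all 31 genes and, from each other list, at most 4 genes with an adjusted p under 0.05 and the largest change. *Rag1*, *Irgm2* and genes listed at 0 were named after their values were seen. Shared stretches of 75 bases were counted in GENCODE M21 transcripts. Promoter windows came from RefSeq.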

Additional observations from a re-analysis of the deposited data

Results flagged for a closer look

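In 7 of the 62 group values examined (31 genes in each group), 1 mouse stood apart from its group by a gap large for the group's range (Dixon's test). Chance gives about 1 in 20 for a single value, but the 62 values come from the same 12 mice and are not independent. In 6 of the 7 it was unaffected mouse 21 above the other unaffected mice: *H2-D1* at 241 CPM, *Oasl2* at 34.1 CPM, *Ifit3* at 20.8 CPM, *Irf7* at 13.3 CPM, *Nlrc5* at 22.5 CPM and *Ifit1* at 11.6 CPM. The remaining gene was *Ciita*, at 25.9 CPM in affected mouse 1. Mouse 21 also held a summed T cell marker level of 349 CPM and mouse 1 a summed B cell marker level of 187 CPM, and the part of these cells in the values was not tested.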

How the results depend on the processing

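With *Rsad2*, *Ddx58* and *Ifit2* called, 3 members were lower. The count was 1 with library totals in place of TMM factors and with limma on log2(FPKM + 1), on log2(FPKM + 0.1) and on log2(FPKM + 1) without a filter, 6 with the leukocyte covariate, 1 to 4 with single mice left out, and 0 without mice 14 and 21 or without mice 1, 3, 14 and 21; these last sets of mice were chosen after seeing the data, and they have fewer samples. With single mice left out, 746 to 1518 of all genes were called lower, among 19471 to 19998 genes tested. No member was called higher in any of the 27 alternatives. Members without overlap numbered 0, against 7.14% of all genes. They numbered 1 with upper-quartile factors (4.2% of all genes lay below) and 3 without mice 1, 3, 14 and 21 (7.25% of all genes lay below). With single mice left out they numbered 0 to 2, and the share over all genes was not computed for those sets. Genes called numbered 2699, against 1339 with limma on log2(FPKM + 1) without a filter, 1019 without mice 1, 3, 14 and 21, and 1774 to 3390 with single mice left out. Of 836 fold changes recomputed for the 31 genes, 29 lost a call and 8 gained one, and none was called in the opposite direction; 81 changed sign without a call, and 10 genes never did. Library totals without *Tg* shifted the median of all genes to -0.13 on the log2 scale, with the 31 genes at -0.21. No paired analysis was possible because the groups share no replicate numbers. Low counts limit *Isg15* and the interferon ligands.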
